A study of Homo sapiens with 4 samples.

Results

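The genes described here are 9 transcription factors that mark the luminal lineage of the breast, FOXA1, GATA3, SPDEF, TFAP2A, TFAP2C, ELF3, XBP1, GRHL2 and TBX3, and AGR2, an endoplasmic reticulum protein of secretory luminal cells. They were chosen by name, and all 10 were found among the 23605 gene symbols of the deposited tables. RNA was sequenced from LCC9, an antiestrogen-resistant derivative of the MCF-7 breast cancer line that is labelled as tamoxifen resistant and as carrying wild-type estrogen receptor alpha. Both groups grew without phenol red in charcoal-stripped serum, a low-estrogen medium, and received for 24 h either the vehicle DMSO (2 libraries) or A7 (2 libraries), which the labels call a BRCA1 mimetic. The dose is not stated in the labels, the compound is named only by its code because its catalogue number differs between the series title and the titles of its samples, and the model is a single cell line. Whether the libraries of a group came from separate cultures is not stated, so every p-value measures the spread between these libraries, which may be technical.

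In the mammary gland FOXA1 is a pioneer factor that opens chromatin for the estrogen receptor, GATA3 specifies and maintains luminal cells, and the AP-2 factors TFAP2A and TFAP2C bind many of the same enhancers. SPDEF and ELF3 are epithelial members of the ETS family, and GRHL2 of the Grainyhead family keeps cell junction genes on. TBX3 is a T-box transcriptional repressor that acts in mammary development, and XBP1 drives secretory capacity and the unfolded protein response. AGR2 is a protein disulfide isomerase of mucus-secreting and luminal cells, and SPDEF, FOXA1 and the estrogen receptor are among its known regulators.

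The start regions of AGR2, GATA3 and FOXA1 are shown first, since the luminal factors are known to bind near each other's genes and the promoters differ in which of their words they hold. The sequences come from RefSeq (build GRCh38.p14), whose promoter table matched 7 of the 10 members: ELF3, TFAP2A, SPDEF, AGR2, GATA3, FOXA1 and XBP1. Each is given 5′ to 3′ on the gene's own strand and stops before the first annotated untranslated base. AGR2 lies on the minus strand at chr7:16805081-16805249, from 250 to 82 bases before its start, GATA3 on the plus strand at chr10:8054438-8054652, from 250 to 36 bases before one of its 6 listed starts, and FOXA1 on the minus strand at chr14:37595250-37595499, the 250 bases before its start. Capitals mark a word that GATA factors are known to bind, AGATAA, in the sequence of AGR2, and one of AP-2 factors, GCCNNNGGC, in that of GATA3.
AGR2: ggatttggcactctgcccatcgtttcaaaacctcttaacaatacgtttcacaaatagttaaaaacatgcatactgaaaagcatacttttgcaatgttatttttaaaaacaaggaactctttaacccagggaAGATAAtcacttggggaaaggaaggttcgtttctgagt
GATA3: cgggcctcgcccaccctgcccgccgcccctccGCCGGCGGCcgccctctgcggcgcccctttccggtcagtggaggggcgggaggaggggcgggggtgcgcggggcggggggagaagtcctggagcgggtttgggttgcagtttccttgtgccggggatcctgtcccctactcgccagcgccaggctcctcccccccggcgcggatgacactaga
FOXA1: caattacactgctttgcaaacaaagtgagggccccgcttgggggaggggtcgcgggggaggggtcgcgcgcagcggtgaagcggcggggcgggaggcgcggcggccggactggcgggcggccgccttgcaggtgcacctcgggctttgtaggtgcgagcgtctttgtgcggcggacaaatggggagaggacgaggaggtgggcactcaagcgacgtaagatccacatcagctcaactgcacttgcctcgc

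The 250 bases before each start were searched on both strands for 4 words: AACCGGTT for Grainyhead factors, TGTTTAC for Forkhead factors, AGATAA for zinc finger factors of the GATA family and GCCNNNGGC for AP-2 factors. The AGR2 window alone among the 14 windows of these 7 members held the GATA word, which 9.17% of all 35116 promoter windows hold. The AP-2 word was in 4 of the 14 windows, of GATA3 and XBP1, against 19.8% of all windows. The Forkhead word (2.98% of all windows) and the Grainyhead word (0.117%) were in 0 of the 14. In base composition the AGR2 window (40.4% G and C) was below, and the FOXA1 window (67.2%) above, the median of 58% over all windows. Such matches describe letters only and are no evidence of binding.

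Depth and cell identity were read from the same tables. From the steps between low FPKM values, the vehicle libraries hold about 2200000 and 2100000 fragments and the A7 libraries about 4100000 and 3100000. Values are given as scaled FPKM, which are the authors' FPKM (fragments per transcript length and sequencing depth) divided by a factor per library of 0.9899 to 1.02. Luminal markers were present in every library, with KRT19 between 235.6 and 429.2, KRT18 between 172.2 and 315, CDH1 between 65.6 and 70.07 and ESR1 between 4.275 and 5.357 scaled FPKM. The basal keratins KRT5, KRT14 and KRT17, the mesenchymal factor SNAI2 and the blood markers PTPRC and CD3E were listed at 0 in all 4, as were 9 of 22 basal and mesenchymal and 5 of 15 blood, endothelial and stromal markers in all. Among the markers above 0 in every library were ACTA2, between 11.1 and 14.6, VIM, between 6.18 and 8.37, and CDH3, between 1.51 and 2.82. So were the macrophage marker CD68, between 3.47 and 4.15, and the basal factor TP63, between 0.547 and 1.46. The basal keratin KRT15 lay between 0 and 0.634. One library stood apart in stromal genes: A7 replicate 1 listed DCN at 8.40, SPARC at 7.98, FN1 at 1.43, COL1A1 at 1.34, CAV1 at 1.12 and LUM at 1.08 scaled FPKM, where the other 3 libraries were at most 0.613 for any of them. Of the 13 basal and mesenchymal markers above 0 in some library 8 were highest in A7 replicate 1, and of the 10 such blood, endothelial and stromal markers 7 were. A7 replicate 1 is also the deepest library, and some of these markers, such as VWF (0.0292) and COL3A1 (0.0825), were above 0 only there. The share of all genes highest in A7 replicate 1 was not computed. The summed level of the first list was 9.76 and 11.4 with vehicle and 23.9 and 11.5 with A7, and that of the second 18.3 and 19.2 with vehicle and 25.7 and 16.5 with A7. In bulk RNA fewer cells of a type and less RNA per cell cannot be told apart. The part of these genes in the results was not tested, and values without that library are given below.

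**Figure D1:**
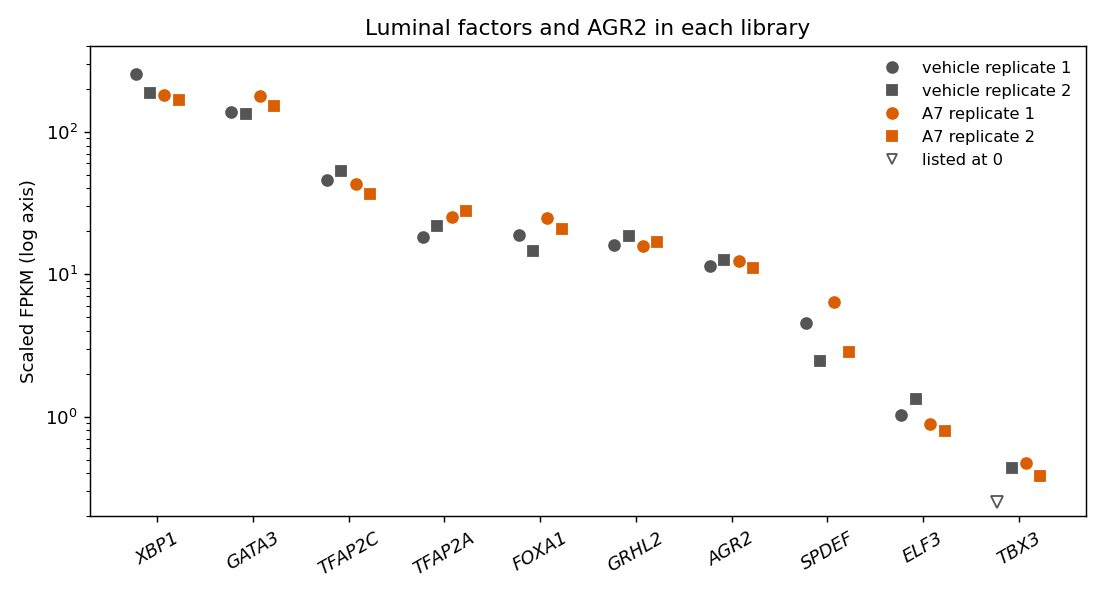
Scaled FPKM (log axis) of the 10 members in the 4 libraries, ordered by mean level, with grey for vehicle and orange for A7, circles for replicate 1 and squares for replicate 2. XBP1 and GATA3 are highest in every library and TBX3 lowest, between 0 and 0.473, and its open triangle marks the library in which it is listed at 0.

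The luminal factors had differences of both signs between A7 and vehicle. FOXA1, GATA3 and TFAP2A had higher values in both A7 libraries than in either vehicle library, with means 1.35, 1.22 and 1.32 times those with vehicle. TFAP2C, XBP1 and ELF3 had lower values in both A7 libraries, with vehicle means 1.24, 1.27 and 1.41 times those with A7. The groups overlapped for AGR2, GRHL2 and SPDEF, and TBX3 was under the minimum mean of 1 FPKM that a gene needed to be tested. None of these differences passed the test: limma on log2(scaled FPKM + 1) over the 8952 genes with sufficient level, with Benjamini-Hochberg adjustment, gave members adjusted p-values between 0.806 and 0.978.

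Against the background of all tested genes the members' counts read as follows. At an adjusted p under 0.05, 0 of the 9 tested members and 0.0223% of all tested genes (2 of 8952) were called, and at an unadjusted p under 0.05 the shares were 0 of 9 and 5.76%, though with other settings up to 4 members had such a p. With the TPM scale 3 of 9 did (FOXA1, GATA3 and TFAP2A), against 9.07% of all tested genes. Groups without overlap were found for 6 of 9 members, 3 higher and 3 lower with A7, and for 36.9% of all tested genes, 18.3% higher and 18.6% lower. ELF3, one of the 3 lower members, reached the minimum of 1 FPKM only through its vehicle libraries and had to differ, so that the count gives no support. A higher mean log2 value with A7 was found in 4 of 9 members and in 49.7% of all tested genes. The members' median difference was -0.033 on the log2 scale and that of all tested genes -0.0019. The 6 members without overlap differed by 0.24 to 0.42 in size, where the 5th and 95th percentiles of all tested genes were -0.43 and 0.45.

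**Figure D2:**
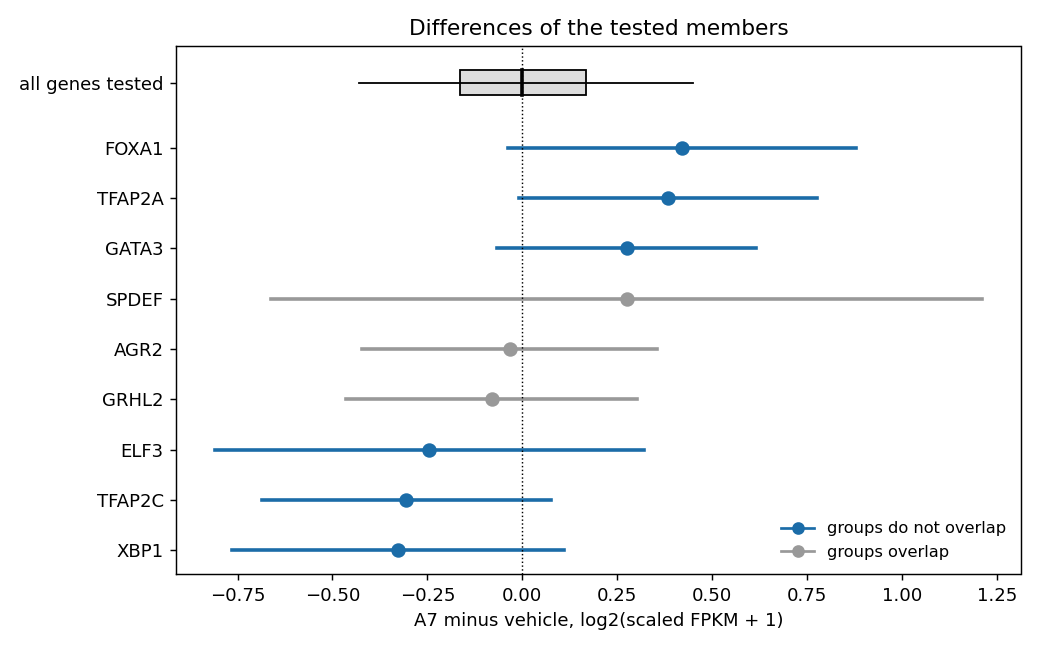
Difference of A7 minus vehicle on the log2(scaled FPKM + 1) scale for the 9 tested members, as points with 95% intervals from limma, blue where the groups do not overlap and grey where they do. The box and line at the top show the quartiles, the median and the 5th to 95th percentile of all 8952 tested genes, and every member's interval includes 0.

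FOXA1, the pioneer factor, was listed at 18.9 and 14.6 scaled FPKM under vehicle, against 24.6 and 20.8 with A7. Both A7 values lay above both vehicle values, but the nearest pair (18.9 and 20.8) was closer than the vehicle replicates were to each other. The means were 16.8 ± 3.1 and 22.7 ± 2.7 (SD, n = 2 each), and the log2 difference was 0.42 (SE 0.19, 95% interval -0.04 to 0.88). Without A7 replicate 1 it was 0.31 and without vehicle replicate 2 it was 0.25. Its relatives FOXA2 and FOXA3 were listed at 0 in all 4 libraries. Exons of TTC6 overlap FOXA1 on the opposite strand in GENCODE 29 and the library protocol names no step that keeps the strand, so reads of the pair cannot be told apart.

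GATA3, the zinc finger factor of luminal cells, stood at 138.5 and 132.3 with vehicle, against 178.3 and 150.9 with A7. The vehicle replicates lay close together and the A7 replicates further apart, with A7 replicate 1 highest. The log2 difference of 0.28 (SE 0.14, 95% interval -0.07 to 0.62) was 0.16 without A7 replicate 1. In level GATA3 exceeded 93.7% of all tested genes. Its relatives GATA2 and GATA4 were under the minimum and varied within groups, GATA2 from 0.166 to 1.32 and GATA4 from 0.177 to 1.57 between the vehicle replicates, and GATA1 and GATA5 were listed at 0. In FPKM GATA3 stood at 7.31 and 9.06 times FOXA1 with vehicle, against 7.24 and 7.26 times with A7.

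The AP-2 pair had differences of opposite sign, neither of which passed the test. TFAP2A was listed at 18.3 and 21.8 scaled FPKM under vehicle, against 25.1 and 27.7 with A7, and TFAP2C at 45.9 and 52.6 with vehicle, against 42.8 and 36.6 with A7. For both genes the groups did not overlap. The log2 difference was 0.38 for TFAP2A (SE 0.16, 95% interval -0.01 to 0.78) and -0.31 for TFAP2C (SE 0.15, 95% interval -0.69 to 0.07), the latter -0.19 without A7 replicate 2. TFAP2C was the more abundant of the pair in every library. Their ratio within a library does not depend on how libraries are scaled, and it was chosen after the values were seen. TFAP2C stood at 2.51 and 2.41 times TFAP2A with vehicle, against 1.70 and 1.32 times with A7, where the A7 libraries lay apart from each other. Since both genes differed without overlap and in opposite directions, the A7 ratios had to lie below both vehicle ratios. The ratio therefore adds no support to the values of each gene. As a difference of log2 values the change in ratio was -0.69, and it was -0.51 without A7 replicate 2 and -0.87 without A7 replicate 1. TFAP2B and TFAP2D were at most 0.224 scaled FPKM in any library and TFAP2E was listed at 0. Antisense genes overlap exons of TFAP2A, and reads from them cannot be separated here.

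**Figure D3:**
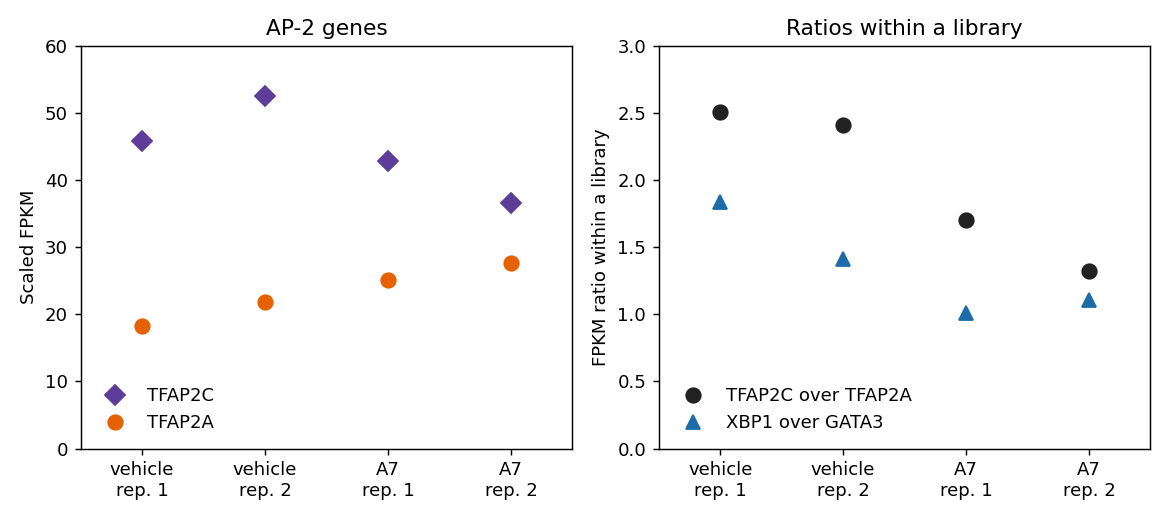
Left, scaled FPKM of TFAP2C and TFAP2A in each library; right, the FPKM ratios of TFAP2C to TFAP2A and of XBP1 to GATA3 within each library. TFAP2C to TFAP2A lies at 2.51 and 2.41 with vehicle, against 1.70 and 1.32 with A7. The genes of each ratio differ without overlap and in opposite directions, so both ratios had to separate the groups.

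XBP1, the most abundant member, was listed at 254.5 and 186.6 scaled FPKM under vehicle, against 180.4 and 166.7 with A7. Vehicle replicate 1 stood well above the other 3 libraries, and the distance from vehicle replicate 2 to A7 replicate 1 was small beside that between the vehicle replicates. The means were 220.5 ± 48.0 and 173.6 ± 9.7 (SD, n = 2 each), with a log2 difference of -0.33 (SE 0.18, 95% interval -0.76 to 0.11) that was -0.11 without vehicle replicate 1 and -0.55 without vehicle replicate 2. Since the protein's activity depends on a splicing step that removes a short stretch of its mRNA, and the tables give 1 value per gene, spliced and unspliced XBP1 are not distinguished. XBP1 and GATA3, the members with the highest levels, had differences of opposite sign, and the ratio of XBP1 to GATA3 was 1.84 and 1.41 with vehicle and 1.01 and 1.11 with A7. Both genes differed without overlap, so this ratio also had to separate the groups and adds no support.

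Of 27 listed genes that XBP1 or the unfolded protein response is known to control 25 were tested, 13 with a higher and 12 with a lower mean with A7, and 0 passed at an adjusted p under 0.05 in limma (1 at an unadjusted p, as were 5.76% of all tested genes). Their median log2 difference was 0.021, and it lay below 0 with any 1 library left out (-0.089 without vehicle replicate 2). SDF2L1, a chaperone cofactor, stood at 10.2 and 5.27 with vehicle, against 13.1 and 13.7 with A7 (log2 difference 0.78, limma adjusted p = 0.806). The disulfide isomerase gene PDIA6 stood at 348.2 and 437.5 with vehicle, against 253 and 334.7 with A7, and SSR3, a subunit of the translocon-associated complex, at 64.0 and 69.2 with vehicle, against 54.2 and 57.5 with A7. Groups did not overlap in 9 of the 25, 1 higher and 8 lower with A7, where 18.3% of all tested genes were higher and 18.6% lower without overlap.

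ELF3 and SPDEF, the ETS factors among the members, rest on few fragments. ELF3 was listed at 1.03 and 1.33 scaled FPKM under vehicle, against 0.884 and 0.788 with A7, and its mean of 1.01 was just above the minimum for testing. Roughly 7, 9, 11 and 8 fragments lie behind these values in that order, and the log2 difference was -0.24 (SE 0.23, 95% interval -0.81 to 0.32), or -0.48 with a pseudocount of 0.01. An antisense gene, ELF3-AS1, and a further gene on the same strand overlap its exons, and reads from them cannot be separated here. SPDEF was listed at 4.57 and 2.46 with vehicle, against 6.37 and 2.83 with A7, from roughly 19, 10, 49 and 17 fragments. Replicate 1 was the higher library in both groups, the groups overlapped, and the log2 difference of 0.27 (SE 0.38, 95% interval -0.66 to 1.21) was -0.20 without A7 replicate 1 and -0.06 without vehicle replicate 2.

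Other ETS genes were more abundant than ELF3. ELF5, a regulator of secretory luminal cells, stood at 7.97 and 7.17 with vehicle, against 9.77 and 9.37 with A7, and ELF4 at 1.99 and 1.48 with vehicle, against 2.69 in both A7 libraries. Both differed without overlap, by 0.30 and 0.44 on the log2 scale, and did not pass (limma adjusted p = 0.806 for each). The groups overlapped for EHF (log2 difference 0.06), ELF1 (-0.03) and ELF2 (0.15).

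GRHL2 overlapped between the groups. It was listed at 16.1 and 18.6 scaled FPKM under vehicle, against 15.8 and 16.8 with A7, where the A7 replicates lay around vehicle replicate 1. An antisense gene overlaps exons of GRHL2, and reads from that gene cannot be separated here. The log2 difference of GRHL2 was -0.08 (SE 0.16, 95% interval -0.46 to 0.30). Its relative GRHL1 stood at 3.83 and 2.90 with vehicle, against 4.36 and 4.42 with A7 (log2 difference 0.31, limma adjusted p = 0.806), and GRHL3 was at most 0.335 in any library. Of 21 genes of luminal epithelial structure, among them known GRHL2 targets, 18 were tested, 8 with a higher and 10 with a lower mean with A7. In limma 0 passed after adjustment. An unadjusted p under 0.05 was found for 3 of the 18, against 5.76% of all tested genes. Without overlap of the groups 5 were higher and 1 lower, where the shares of all tested genes were 18.3% and 18.6%. The list's median of -0.07 turned positive without vehicle replicate 1 (0.096), without A7 replicate 2 (0.038) and with a minimum mean of 5 FPKM (0.034). It was also positive with quantile normalization (0.0054) and on the TPM scale (0.15). There the medians of all tested genes were 0.0092 and 0.17, so the list stayed below them. The junction gene CLDN4 stood at 4.91 and 2.99 with vehicle, against 7.23 and 7.31 with A7, the receptor gene ERBB3 at 14.2 and 14.7 with vehicle, against 20.1 and 18.9 with A7, and RAB25, a trafficking GTPase, at 66.7 and 59.4 with vehicle, against 49.6 and 48.4 with A7 (limma adjusted p = 0.806 for each).

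TBX3 was near the limit of detection. It was listed at 0 in vehicle replicate 1 and at 0.434 in vehicle replicate 2, and at 0.473 and 0.382 scaled FPKM in the A7 libraries, which corresponds to roughly 4, 9 and 6 fragments in the 3 libraries where it was above 0. Vehicle replicate 2 lay between the A7 libraries, and no difference was detectable at this depth. With no minimum level TBX3 had a log2 difference of 0.25 (95% interval -0.35 to 0.86, limma adjusted p = 0.796 over 16276 genes). TBX2, its closest relative on the list, was listed at 1.05 and 0.851 with vehicle, against 1.36 and 0.848 with A7.

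AGR2, the only member that is not a transcription factor, had the smallest difference between the groups on the scale used, though not on the TPM scale, nor without A7 replicate 1 or vehicle replicate 2. It was listed at 11.5 and 12.5 scaled FPKM under vehicle, against 12.4 and 11.0 with A7, so that the A7 values enclosed one vehicle value and the groups overlapped. The means were 12.0 ± 0.7 and 11.7 ± 1.0 (SD, n = 2 each), and the log2 difference was -0.03 (SE 0.16, 95% interval -0.42 to 0.36). Differences of any size within that interval cannot be told from 0 with 2 libraries a group. Its sister gene AGR3 stood at 7.09 and 5.98 with vehicle, against 6.79 and 6.39 with A7 (log2 difference 0.01), and AGR2 was 1.62 to 2.09 times as abundant as AGR3 in FPKM over the 4 libraries. TXNDC12, the third gene of this small disulfide isomerase group, stood at 7.50 and 6.82 with vehicle, against 9.06 and 9.30 with A7 (log2 difference 0.32, limma adjusted p = 0.806).

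By level per transcript length the members fell in the same order at both ends in every library. XBP1, GATA3 and TFAP2C had the highest values, in that order, in all 4, and AGR2, SPDEF, ELF3 and TBX3 took the last 4 places in that order. TFAP2A, FOXA1 and GRHL2 lay close together in the middle, between 14.6 and 27.7 scaled FPKM, and changed places between libraries. XBP1 exceeded 94.6% of all tested genes in mean level, AGR2 66.8%, SPDEF 40.4% and ELF3 0.391%. The spread between replicates was widest for SPDEF, at 0.69 between the vehicle and 0.94 between the A7 libraries on the log2 scale. For FOXA1, GATA3, TFAP2A and TFAP2C the difference between the groups exceeded that between the replicates of either group. It did for ELF3 too, but ELF3 reached the minimum only through its vehicle libraries and had to differ. For XBP1 the vehicle replicates differed by 0.45 and the groups by 0.33. The share of all tested genes that meet this criterion was not computed, so it gives no support.

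Profiles over the 4 libraries were compared by Euclidean distance between centred log2 values, among 3279 other genes that averaged at least 10 FPKM. Nearest to AGR2 were ENO2 (distance 0.034) and TAF7 (0.037), nearest to FOXA1 were PNISR (0.065) and NPIPL3 (0.076), and nearest to GATA3 were PAK2 (0.067) and DEGS1 (0.074). Within a distance of 0.1 lay 70 genes for AGR2, 14 for GATA3 and 5 for FOXA1. AGR2 deviated from its mean by -0.096 to 0.073 and FOXA1 by -0.39 to 0.33, and a flatter profile can have more neighbours. Over 4 libraries close profiles can arise by chance among so many genes, and shared control was not tested. Among the members, where no such minimum was set, TFAP2C and ELF3 (0.12) and then GRHL2 and AGR2 (0.19) had the closest profiles. Next came ELF3 with GRHL2 (0.20) and with AGR2 (0.23), and then FOXA1 with GATA3 (0.25). ELF3 averaged 1.01 scaled FPKM, so the pseudocount of 1 shrinks its profile and its distances depend on that setting.

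Most tested relatives and partners of the members had higher means with A7, and 0 passed the test in limma at a p under 0.05, adjusted or not. Of all tested genes 49.7% had a higher mean log2 value, and their median difference was -0.0019. Of 28 listed relatives 11 were tested, 9 with a higher and 2 with a lower mean, and their median was 0.14. CREB3L4, a luminal relative of XBP1 and the most abundant of them, stood at 77.3 and 76.6 with vehicle, against 79.3 and 91.2 with A7, and CREB3L2, which controls secretory cargo genes, at 1.03 and 1.35 with vehicle, against 0.989 and 1.14 with A7. Of 26 partners and other luminal regulators 14 were tested, 10 with a higher and 4 with a lower mean, with a median of 0.18. ZNF217, a luminal oncogene, stood at 10.8 and 12.2 with vehicle, against 15.8 and 13.9 with A7, the progesterone receptor gene PGR, an estrogen target, at 1.45 and 1.62 with vehicle, against 1.24 and 0.740 with A7, and CEBPB at 3.04 and 3.06 with vehicle, against 3.27 and 5.09 with A7. Limma gave adjusted p-values of 0.806, 0.814 and 0.820 for these. Without A7 replicate 2 the medians of the relatives and of the partners were 0.056 and 0.10. Without overlap of the groups 5 of the 11 relatives were higher and 0 lower. Of the 14 partners 7 were higher and 1 lower in this way, where the shares of all tested genes were 18.3% and 18.6%.

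**Figure D4:**
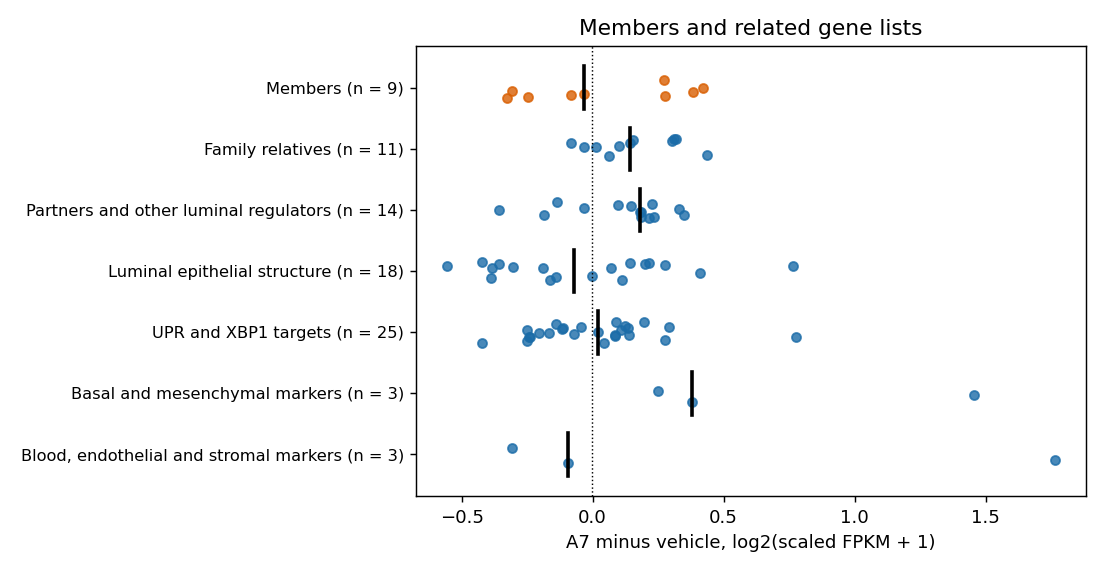
Difference of A7 minus vehicle on the log2(scaled FPKM + 1) scale for each tested gene of the members and of 6 related lists, with a bar at each list's median and a dotted line at the median of all tested genes. The members lie on both sides of 0, and the outlying points of the last pair of lists are SPARC and DCN, which were high in A7 replicate 1 only.

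Of the 22 basal and mesenchymal markers 3 were tested, and of the 15 blood, endothelial and stromal markers 3. VIM, an intermediate filament gene of mesenchymal cells, stood at 6.18 and 6.24 with vehicle, against 8.37 and 6.83 with A7, and CDH3, the P-cadherin gene, at 1.96 and 1.51 with vehicle, against 2.82 and 2.29 with A7. The smooth muscle actin gene ACTA2 stood at 13.7 and 14.6 with vehicle, against 11.1 and 11.3 with A7, and CD68 at 4.11 and 4.15 with vehicle, against 3.47 and 4.15 with A7. The other tested gene of each list, SPARC (log2 difference 1.46) and DCN (1.77), reached the minimum only through A7 replicate 1 and had to differ. Among the 6 tested genes of both lists 0 passed at an adjusted p under 0.05 in limma. FOXA1, GATA3 and SPDEF were highest in A7 replicate 1, as were SPARC and DCN, whereas TFAP2A was highest and TFAP2C, XBP1 and ELF3 were lowest in A7 replicate 2. How many of all tested genes were highest in A7 replicate 1 was not computed, and a link between these genes was not tested.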

How the data were processed

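Total RNA of 4 libraries was converted with a SMARTer PCR cDNA kit, sheared and ligated to adapters, per the labels' protocols. The authors deposited 1 FPKM value per gene symbol, per the file headers. The submitters' processing notes name, without roles, Cufflinks 2.2.1, TopHat with no version, CASAVA 1.8.2 and build GRCh37. Annotation and the handling of multi-mapped reads: not given in the sources used here. From 23619 lines per table, 14 whose symbol was a whole number were left out (at most 0.00539% of summed FPKM).

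Because the values are normalized, count models were avoided. A scaling factor per library, the median over expressed genes of its FPKM relative to the geometric mean of the 4 libraries, was divided out. Genes averaging at least 1 FPKM were fitted in limma 3.58.1 (R 4.3.3) on log2(scaled FPKM + 1), two-sided, with a variance trend and Benjamini-Hochberg adjustment at 0.05. Differences on this scale understate those of low genes. The fit had 2 residual and 3.89 prior degrees of freedom. It was tested on simulated data whose changes were all larger than any member's difference, so differences of the members' size were not tried. An exact permutation of 2 against 2 libraries cannot go below 0.333, so none is given. Depth was estimated from steps between values of 0.001 to 0.5 FPKM and GENCODE 29 transcript lengths, as a rough figure. A search with blastn 2.17.0 found 0 near-identical copies of a member (95% identity over 50% of the transcript).

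Members, lists and tests were chosen with earlier results of these data known. Named are all members, tested relatives, up to 3 tested genes with the smallest p per list, and the 2 nearest profiles of AGR2, FOXA1 and GATA3. Untested relatives, CREB3L2, CREB3L4 and the ratios were picked after their values were seen. Members under the minimum level of an alternative have no value there. Alternatives changed the pseudocount, filter, scaling, trend, block and libraries.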

Additional observations from a re-analysis of the deposited data

How the results depend on the processing

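The direction of FOXA1, GATA3, TFAP2A, TFAP2C and XBP1 was the same under all 13 alternatives and that of ELF3 under all 12 that could give it, but groups that do not overlap cannot turn when 1 library is left out, so this says little. No member was called under any alternative, with adjusted p-values in limma from 0.492 to 0.990. Rescaling FPKM to TPM moved the median of all genes to 0.17 and that of the members to 0.17, and turned AGR2 to 0.17 and GRHL2 to 0.13, while relative to the shift they were -0.0041 and -0.045, so that 6 in place of 4 of 9 members had a higher mean. On that scale FOXA1 was 0.63, TFAP2A 0.59, GATA3 0.50 and SPDEF 0.42, or 0.45, 0.42, 0.32 and 0.25 relative to the shift. TFAP2C was -0.086, XBP1 -0.10 and ELF3 -0.12, or -0.26, -0.28 and -0.29 relative to the shift. With no filter the members' median was 0.11. Leaving out 1 library at a time, the members' median ranged from -0.11 (without A7 replicate 1) to 0.051 (without A7 replicate 2), AGR2 from -0.11 to 0.051, GRHL2 from -0.18 to 0.023 and SPDEF from -0.20 to 0.75. Here a lone library is assumed to vary like the others. Over all genes 2 were called, against 1 with a pseudocount of 0.1 or 0.01 or without the trend, 0 with no filter, 4 with a minimum mean of 5 FPKM, and 0 (without A7 replicate 1) to 11 (without A7 replicate 2) with 1 library left out. The cause was not tested. With the replicate number as a block 0 genes and 0 members were called, and 4 of 9 members (FOXA1, TFAP2A, GATA3 and XBP1) had an unadjusted p under 0.05, against 9.63% of all tested genes. Over the other alternatives 0 to 3 members did. Deviations of same-numbered libraries correlated at 0.0906 over 8952 genes, and the labels tie no numbers together. Whether same-numbered libraries share a batch is not stated, and this correlation over all genes cannot settle it. The alternatives for the related lists and for the TFAP2C to TFAP2A ratio were chosen after seeing the data. Depth limits TBX3, ELF3 and SPDEF, with roughly 19, 36 and 95 fragments over all libraries.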
